A study of Arabidopsis thaliana with 6 samples.

Results

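The mature stem of wild-type Arabidopsis thaliana was described from the level of every gene in 3 sequenced libraries. A gene was kept when it reached at least 1 FPKM (fragments counted on a gene, divided by the gene's length and by all mapped fragments of the library) in libraries 1, 2 and 4 alike, which left 16691 of the 33690 features in the table. Members were ranked by their mean FPKM, and because this unit is already divided by gene length, levels may be set side by side between genes. The plants were untreated wild type of the Columbia background, grown in a greenhouse at 20 °C with 16 h of light and 8 h of darkness by the labels. The study's methods give another temperature and day length. Main stems were taken 35 days after flowering. By the study's methods, flowers and leaves had been removed and the stems had turned yellow while the plants bore siliques. The series also holds stems of the hdt1 mutant, which were not used, and no genotype was compared. The study's methods describe stems taken in triplicate and the series text describes unreplicated samples, and no source says that the 3 libraries came from separately grown plants. The spread between them is therefore not known to be that between plants.

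The inflorescence stem carries water and sugars between the rosette and the siliques and holds the plant upright. In its vascular bundles and in the fibers between them, cells lay down a secondary wall of cellulose, xylan and lignin and then die as tracheary elements or fibers, so that their RNA is lost. Around this woody part lie phloem, a starch sheath, a green cortex with chloroplasts and a waxy epidermis with stomata. These were whole stems, so fewer cells of a type and less RNA per cell cannot be told apart.

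The 3 libraries were about equally deep. The mapped fragments were estimated from genes of known length. The estimate is the value, within a preset range, at which the largest number of these genes would hold exactly 1 fragment. It was 42525306 in library 1, 43363983 in library 2 and 40505052 in library 4, resting on 360, 333 and 278 genes. At this depth a gene near the limit of 1 FPKM still rested on a median of 64 reads, with a range of 3 to 320 over 106 genes whose reads could be worked out exactly. Library 1 stood apart from libraries 2 and 4 in composition. Across the 16691 kept genes, log2 levels of library 1 correlated with those of libraries 2 and 4 at Pearson's r of 0.894 and 0.891, and libraries 2 and 4 correlated with each other at 0.994. These are correlations across genes, which are not independent replicates. At least a 2-fold difference was found for 3251 genes between libraries 1 and 2 and for 3425 genes between libraries 1 and 4, but for 29 genes between libraries 2 and 4. The median chi-square per gene was taken over 1177 genes with exact reads, a small subset. It was 33.8 between libraries 1 and 2, 31.9 between libraries 1 and 4 and 1.88 between libraries 2 and 4. Counting alone gives 0.455, and libraries 2 and 4 were counted as separate libraries. Where 3 levels of a gene are given they are those of libraries 1, 2 and 4 in this order, list medians are of the mean over the libraries unless given per library, and the part of the unlike library 1 in any level was not tested beyond leaving it out.

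The kept genes spanned levels between 1.0007 and 8863 FPKM in single libraries. Their mean levels had a median of 16.2 FPKM, with quartiles of 6.995 and 37.4. Of all kept genes, 1435 had a mean of at least 100 FPKM, 51 of at least 1000 FPKM and 5822 below 10 FPKM. The kept genes held 99.3%, 99.4% and 99.4% of the summed FPKM of the libraries. Of the remaining features, 9416 were listed at 0 in all 3 libraries and 7583 had some signal without passing the limit. Just inside the limit lay AT1G30660, MEI1 and PAP16, with lowest values of 1.0007, 1.0008 and 1.0010 FPKM. Just outside it lay AT3G62890, AGP11 and BAT1, with lowest values of 0.9993, 0.9993 and 0.9991 FPKM. AGP11, which encodes an arabinogalactan protein of pollen, shows what the rule leaves out, since it had 0.999 FPKM in library 1 but 21.2 and 28.6 FPKM in libraries 2 and 4.

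Transcripts were spread over many genes. The 10 most abundant genes held 5.78% of the summed mean FPKM, the 100 most abundant 18.9% and the 1000 most abundant 49.1%, and 1054 genes were needed for 50%. By its own ranking, library 1 was more concentrated, with 934 genes holding 50%, against 1039 in library 2 and 1031 in library 4. Of the 100 most abundant genes of each library, 61 were shared by all 3 and 142 appeared in at least 1. By type of gene, 16167 of 26712 protein-coding genes were kept (60.5%), as were 30 of 178 microRNA genes, 33 of 71 small nucleolar RNA genes and 22 of 623 tRNA genes. The 5 nuclear chromosomes differed little in this respect, with 58.2% to 61.4% of their protein-coding genes kept. No source used here states whether counting used the strand, so overlapping and antisense genes cannot be told apart. Near-identical copies, such as those of LHCB1, RBCS, UBQ, EF1A, PIP and ribosomal protein genes, may share reads.

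**Figure D1:**
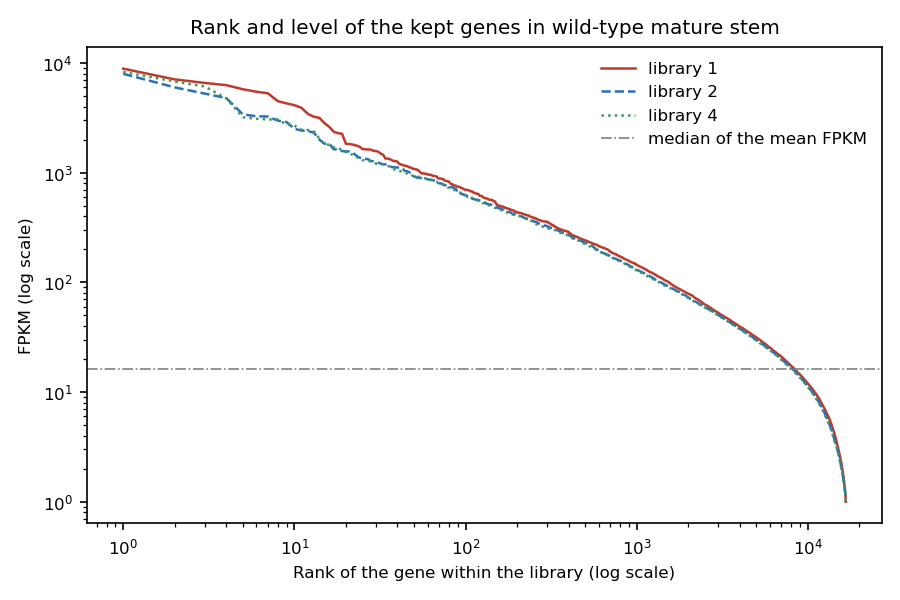
Level in FPKM (log axis) of the 16691 kept genes by their rank within each library (log axis), with libraries 1, 2 and 4 as lines and the median of the mean levels, 16.2 FPKM, as a horizontal line. The curve of library 1 lies above the others at the first ranks, and from there the 3 curves run close together down to the limit of 1 FPKM.

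At the top of the ranking stood genes of widely different work. TCTP (AT3G16640, chromosome 3, 5669317 to 5670842 in TAIR10.1, minus strand), which encodes a small conserved growth-related protein, had 5752, 7955 and 8271 FPKM, a mean of 7326 ± 1372 (SD, n = 3). CAT3, a catalase that breaks down hydrogen peroxide, followed with 7072, 5983 and 6765 FPKM. It was the second gene in every library, and its spread of 1.18-fold was among the smaller ones at the top. LHCB1.3, a chlorophyll-binding antenna protein of photosystem II, had 5283, 5240 and 6085 FPKM. RAP2.3, an ethylene response factor that takes part in sensing low oxygen, ranked 4 with 3231, 4781 and 4756 FPKM and was the most abundant of the transcription factors found by product name. The metallothionein gene MT3, whose protein binds metal ions, had 6270 FPKM in library 1, against 3397 and 3096 FPKM in libraries 2 and 4. GRP7 encodes an RNA-binding protein that the circadian clock controls. Its 8863 FPKM in library 1 was the highest level of any gene there, and libraries 2 and 4 had 958 and 869 FPKM, so that its mean of 3563 ± 4589.6 (SD, n = 3) describes none of the 3 libraries. Left without library 1, GRP7 ranked 52 in place of 6.

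The sequence just upstream of the annotated start of these 6 genes is shown because they lead the ranking. LHB1B2, MT2A, LUX and AT4G27090, a gene for the ribosomal protein L14, are added as carriers of the motifs described further down. The stretches cover positions -100 to -1 of the TAIR10.1 annotation (RefSeq), read 5′ to 3′ on the strand of the gene. Capitals mark TATAAA on the strand of the gene between positions -50 and -15, and on either strand TGGGCC (the site II element), AAACCCTA (the telo box), CACGTG (the G-box), GATAAG (the core of the I-box) and AAAATATCT (the evening element).
TCTP: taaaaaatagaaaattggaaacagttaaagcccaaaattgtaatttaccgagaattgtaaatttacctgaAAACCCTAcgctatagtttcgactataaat
CAT3: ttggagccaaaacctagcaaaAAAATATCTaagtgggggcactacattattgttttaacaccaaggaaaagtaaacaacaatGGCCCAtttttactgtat
LHCB1.3: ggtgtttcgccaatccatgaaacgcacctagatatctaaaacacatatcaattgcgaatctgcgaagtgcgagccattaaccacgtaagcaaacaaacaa
RAP2.3: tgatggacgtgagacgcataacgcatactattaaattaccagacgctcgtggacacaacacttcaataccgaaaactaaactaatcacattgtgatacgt
MT3: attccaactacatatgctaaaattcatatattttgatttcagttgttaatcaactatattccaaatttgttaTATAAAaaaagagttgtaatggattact
GRP7: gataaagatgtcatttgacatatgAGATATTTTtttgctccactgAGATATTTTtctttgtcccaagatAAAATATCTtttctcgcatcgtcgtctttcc
LHB1B2: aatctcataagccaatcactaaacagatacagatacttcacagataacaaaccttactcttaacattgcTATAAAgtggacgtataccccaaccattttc
MT2A: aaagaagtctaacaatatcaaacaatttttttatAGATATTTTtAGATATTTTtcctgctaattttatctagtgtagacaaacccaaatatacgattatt
LUX: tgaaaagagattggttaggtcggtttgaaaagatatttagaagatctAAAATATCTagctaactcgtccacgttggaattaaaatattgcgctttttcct
AT4G27090: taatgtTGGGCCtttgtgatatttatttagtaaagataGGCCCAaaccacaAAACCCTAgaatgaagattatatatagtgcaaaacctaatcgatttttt
They lie at chr3:5670843-5670942 (minus strand, TCTP), chr1:7142872-7142971 (plus strand, CAT3), chr1:10477785-10477884 (plus strand, LHCB1.3), chr3:5705441-5705540 (plus strand, RAP2.3), chr3:5181587-5181686 (minus strand, MT3), chr2:9266558-9266657 (minus strand, GRP7), chr2:14523569-14523668 (minus strand, LHB1B2), chr3:2890575-2890674 (minus strand, MT2A), chr3:17182942-17183041 (plus strand, LUX), chr4:13595253-13595352 (minus strand, AT4G27090). MT3 carried TATAAA at position -28 and LHB1B2 at position -31, whereas TCTP, CAT3, LHCB1.3, RAP2.3 and GRP7 did not hold these letters in that window. GRP7 held AAAATATCT 3 times, once as such and 2 times on the other strand. MT2A held it 2 times, both on the other strand, and CAT3 and LUX held it once each.

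The 30 genes of highest mean level ended with AT5G54940 at 1487, 1251 and 1132 FPKM. Photosynthesis was the role most often seen among them, with 6 nuclear genes. PSBR, a subunit of photosystem II, had 5460, 2419 and 2367 FPKM, and LHB1B2 had 3431, 2313 and 2751 FPKM. CP12-1, a small regulator of the Calvin cycle, stayed at 2608, 2891 and 2444 FPKM. RBCS1A, for the small subunit of Rubisco, and LHCA4, for an antenna of photosystem I, completed this group with 2290, 1177 and 1158 FPKM and with 1579, 1429.7 and 1465 FPKM. A second set is named for dormancy or drought. AT2G33830, a dormancy/auxin associated gene, had 4484, 2002 and 2043 FPKM, whereas its relative DYL1 ran the other way with 1821, 3264 and 3046 FPKM. DI19, named for induction by drought, was lower in library 1 as well, at 1627 FPKM against 2979 and 3053 FPKM. The dehydrin gene ERD14 had 1619, 1321 and 1301 FPKM, and ERD15, another dehydration-induced gene, had 1274, 1833 and 1804 FPKM. NIT2, a nitrilase, was the gene of this set of 30 with the lowest level in library 1, at 841 FPKM against 2391 and 2462 FPKM. LTP4, a lipid transfer protein, and the glycine-rich protein gene GRP-3 were higher there, with 4273, 1147.5 and 987 FPKM and with 3157, 900.3 and 729.6 FPKM.

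Among the same 30, AT4G16190, a papain family cysteine protease, ranked 8 with 2351, 3245 and 3198 FPKM. Other proteases of the vacuole were also high, although this group was chosen after its values had been seen. GAMMA-VPE, a processing enzyme of the vacuole, had 1640.2, 877 and 918 FPKM, the aleurain-like protease gene ALP had 1330 FPKM in library 1 against 898 and 859 FPKM in the others, and RD19 closed the first 100 genes at 919.5, 499 and 499 FPKM. PRXR1, a peroxidase, ARFA1E, a small GTPase of vesicle traffic, and UBC8, a ubiquitin-conjugating enzyme, had means of 1659, 2304 and 1369 FPKM. In 10 of the 30 genes the highest library was at least 2-fold above the lowest, as it was in 29 of the first 100 and in 3829 of all kept genes (22.9%). ATCG00220 was the extreme case. This gene of the chloroplast genome had 6568 FPKM in library 1, against 45.0 and 36.2 FPKM in libraries 2 and 4, and its rank of 16 became 3693 when library 1 was left out.

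**Figure D2:**
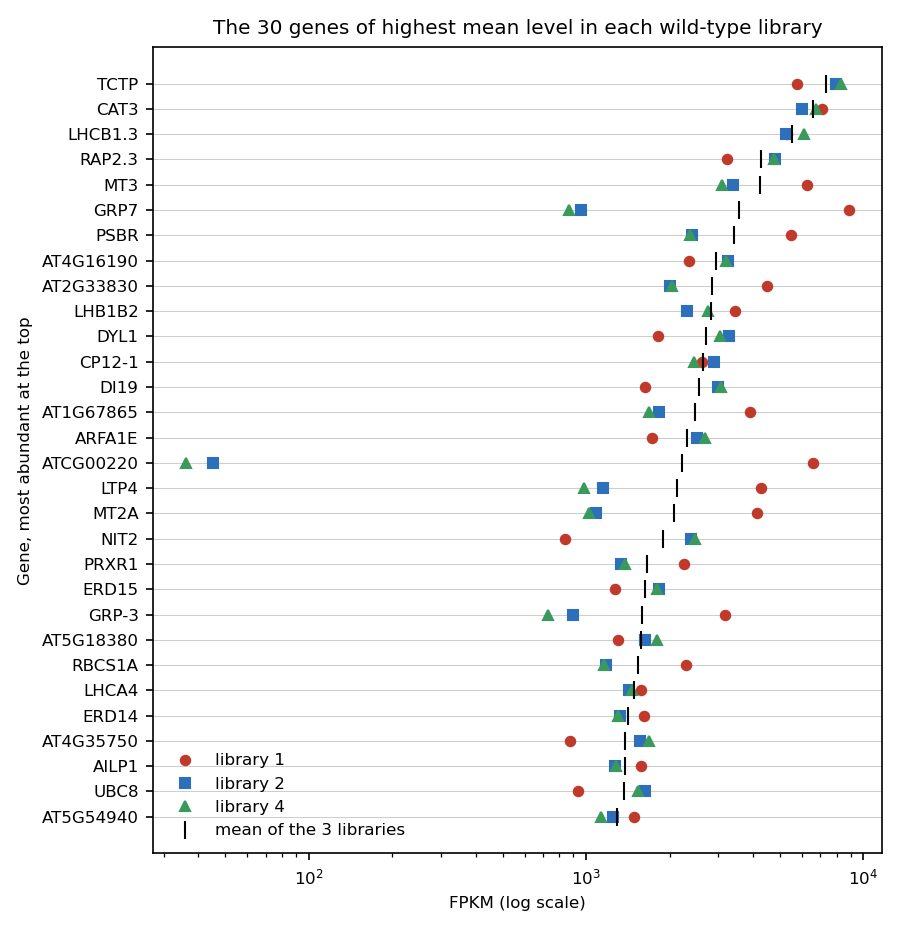
Level in FPKM (log axis) of the 30 genes of highest mean level, with the most abundant at the top, a symbol for each of the 3 libraries and a bar for the mean. For most genes the libraries lie within a 2-fold range, whereas GRP7 and ATCG00220 had 8863 and 6568 FPKM in library 1 and stood far lower in libraries 2 and 4.

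Chloroplast transcripts as a whole separated the libraries in the same way. The genes of the chloroplast genome took 1.48% of the summed FPKM in library 1, against 0.0288% in library 2 and 0.0253% in library 4. Without ATCG00220, which alone made up most of it, the share was 0.670% in library 1, against 0.0226% and 0.0203% in libraries 2 and 4. ATCG00470 had 648, 1.68 and 1.73 FPKM. The mitochondrial genome took 0.0425%, 0.0617% and 0.0765%. The highest spread of a nuclear gene with at least 100 FPKM was that of VSP2, a vegetative storage protein that responds to jasmonate, with 727, 27.7 and 25.3 FPKM. At the other end, BCAT-2, a transaminase of branched-chain amino acids, had 127.9, 128.4 and 128.7 FPKM, a spread of 1.01-fold. CCS, the copper chaperone of superoxide dismutase, BBX15, a B-box zinc finger gene, AT4G36130, a ribosomal protein gene, and RAN-1, a small GTPase of nuclear transport, differed by at most 1.02-fold between libraries. Of the 1435 genes with at least 100 FPKM, 298 stayed within 1.2-fold and 57 differed at least 5-fold.

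Nuclear genes of photosynthesis formed the most abundant large list. All 56 members were kept, with a median of 340 FPKM, against 16.2 FPKM over all kept genes, and 52 of them lay in the top 10% of the ranking. Together they held 5.42%, 3.59% and 3.81% of the summed FPKM. The antenna proteins led, with LHCA2 at 1766, 876 and 919 FPKM and LHCB4.1 at 1347, 858 and 1027 FPKM next to those already named. PSBO1 of the water-splitting complex had 1170.0, 893 and 863.5 FPKM. RCA, which reactivates Rubisco, had 975, 845 and 892.5 FPKM. Later steps of carbon fixation ranked lower, with PRK at 200.4, 122 and 121 FPKM and SBPASE at 56.7, 30.2 and 29.7 FPKM, and the lowest member was CA1, a carbonic anhydrase, at 28.6, 4.56 and 4.24 FPKM. In 52 of the 56 members library 1 was the highest of the libraries, as it was in 53.5% of all kept genes. The chlorophyll-binding and photosystem family, taken by product name, kept 62 of 67 genes with a median of 288 FPKM.

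Ribosomal proteins were the largest by sum of the families taken by product name. Of 327 genes taken as cytosolic ribosomal proteins by words of their product name, 296 were kept with a median of 108 FPKM. They held 6.98%, 6.67% and 6.60% of the summed FPKM. AT5G18380 led them with 1301, 1627 and 1797 FPKM, and AT4G27090 followed with 1084, 1034 and 986 FPKM. The words missed some genes, such as AT3G09500, a ribosomal L29 family gene with 625, 792 and 918 FPKM. Compared with photosynthesis, the share held by ribosomal proteins was even between the libraries. The 15 genes often used as references were all kept, with a median of 243.5 FPKM. After TCTP came UBQ10, a polyubiquitin gene, with 977, 1342 and 1463 FPKM, whereas PP2AA3, a phosphatase subunit, was the lowest with 30.6, 22.8 and 21.7 FPKM. GAPC2, a glycolytic enzyme, had 675, 716 and 677 FPKM, while ACT7, an actin, had 406.5, 249 and 231 FPKM. Of the metallothionein genes, 4 of 5 were kept and MT2A stood next to MT3 with 4120.0, 1089 and 1029 FPKM. MT2B had 461, 265 and 272 FPKM, MT1C about 2.18 FPKM on average, and MT1A was listed at 0 in all libraries.

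Genes of lignin precursors stood well above those of the other secondary wall polymers. All 15 genes of monolignol synthesis were kept, with a median of 63.7 FPKM at the percentile 85.6 of the ranking. CAD5, which reduces cinnamaldehydes to the alcohols, was the highest with 288, 196 and 185 FPKM. CCoAOMT1 and COMT1, the methyltransferases of the pathway, had 294, 84.1 and 79.7 FPKM and 228, 63.7 and 56.6 FPKM, so library 1 was the highest by more than 3-fold. CCR1, which commits the intermediates to monolignols, was even between libraries with 93.9, 105 and 110.6 FPKM. The first enzyme of the pathway was present as PAL1 at 55.0, 57.0 and 55.3 FPKM and as PAL2 at 27.0, 63.8 and 62.6 FPKM. CAD4 was the lowest with 9.52, 3.25 and 3.29 FPKM. The enzymes that join monolignols in the wall were lower, with 6 of 9 members kept and a median of 9.97 FPKM, or 15.4, 6.79 and 6.40 FPKM per library. The laccase LAC4 had 22.7, 10.8 and 10.3 FPKM, LAC17 had 1.37, 1.19 and 1.31 FPKM and LAC11 was not kept, at 0.304 FPKM or less. Of the peroxidases of this list PRX71 led with 47.9, 13.3 and 12.5 FPKM, and PRX2 and PRX72 were not kept.

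The cellulose synthases of the secondary wall were among the low genes of the stem. Their list kept 5 of 6 members with a median of 5.43 FPKM, at the percentile 19.3, against 16.2 FPKM over all kept genes. The percentile was 38.1 with reads in place of FPKM and 39.5 with a limit of 5 FPKM, which fewer members pass. The catalytic subunits CESA4, CESA7 and CESA8 had 9.60, 3.20 and 3.50 FPKM, then 8.62, 5.57 and 6.10 FPKM, then 7.15, 1.70 and 2.16 FPKM. CTL2, a chitinase-like gene needed for the cellulose of secondary walls, stood above them with 111, 21.0 and 21.1 FPKM. Library 1 was the highest in each of the 5 kept genes, as it was in 53.5% of all kept genes. Without library 1 the list would lie lower still, as its medians of 9.27, 3.20 and 3.50 FPKM show. TED6, a partner of these synthases, had 6.56 FPKM in library 1 but 0 and 0.0472 FPKM in the others and was not kept. The primary wall counterparts were higher and more even. All 9 were kept with a median of 28.0 FPKM, CESA1 had 49.3, 44.6 and 48.4 FPKM, CESA3 had 86.7, 70.3 and 71.5 FPKM and CTL1 led with 414, 194.5 and 209.8 FPKM.

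Xylan genes lay between these sets, with 10 of 14 kept and a median of 14.2 FPKM. FRA8, a glycosyltransferase of the xylan end sequence, led with 13.8, 43.6 and 43.5 FPKM and was thus lowest in library 1. IRX10-L and IRX9-L, which extend the backbone, were even with 22.0, 22.8 and 22.3 FPKM and with 24.02, 27.1 and 28.1 FPKM. Their relatives known for secondary walls were lower, since IRX10 had 9.08, 10.6 and 10.4 FPKM and IRX9 fell short of the limit with 2.43, 0.860 and 0.307 FPKM. GXM1 and TBL29, which decorate xylan, were not kept either, nor was GUX2. Of the regulators of the secondary wall, 10 of 16 were kept with a median of 8.32 FPKM. Their medians per library were 17.7, 4.55 and 4.49 FPKM, so this value rests on library 1. XND1, which is known to hold back tracheary element maturation, was the highest with 41.5, 69.9 and 75.05 FPKM, followed by WRKY12, a repressor in pith, with 57.9, 22.4 and 24.1 FPKM. The activators NST1 and SND1, which start wall thickening in fibers, had 12.9, 1.67 and 1.52 FPKM and 9.91, 6.55 and 6.51 FPKM. MYB46 had 2.52, 2.55 and 2.47 FPKM, and VND6, VND7, MYB83, MYB103, SND2 and MYB63 were not kept. VND7, the switch of vessel formation, reached at most 0.380 FPKM.

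Of the genes of tracheary element death, 3 of 6 were kept with a median of 10.9 FPKM. ACL5, a thermospermine synthase that delays this death, was the highest with 26.6, 25.8 and 30.1 FPKM. The protease XCP2 had 8.00, 2.41 and 1.96 FPKM, while XCP1, BFN1 and RNS3 were not kept. All 10 wall proteins were kept with a median of 21.0 FPKM, but their medians per library were 27.6, 10.05 and 10.5 FPKM. AGP20 led with 121, 447 and 400 FPKM, and FLA11, a fasciclin-like protein of secondary walls, had 30.1, 10.8 and 12.2 FPKM. Wall loosening kept 12 of 18 members with a median of 13.4 FPKM, or 23.6, 9.94 and 9.57 FPKM per library. XTH22, an enzyme that cuts and rejoins xyloglucan and answers to touch, stood far above the rest with 361.5, 708 and 616.5 FPKM, and the expansin EXPA1 had 26.0, 23.6 and 23.5 FPKM.

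**Figure D3:**
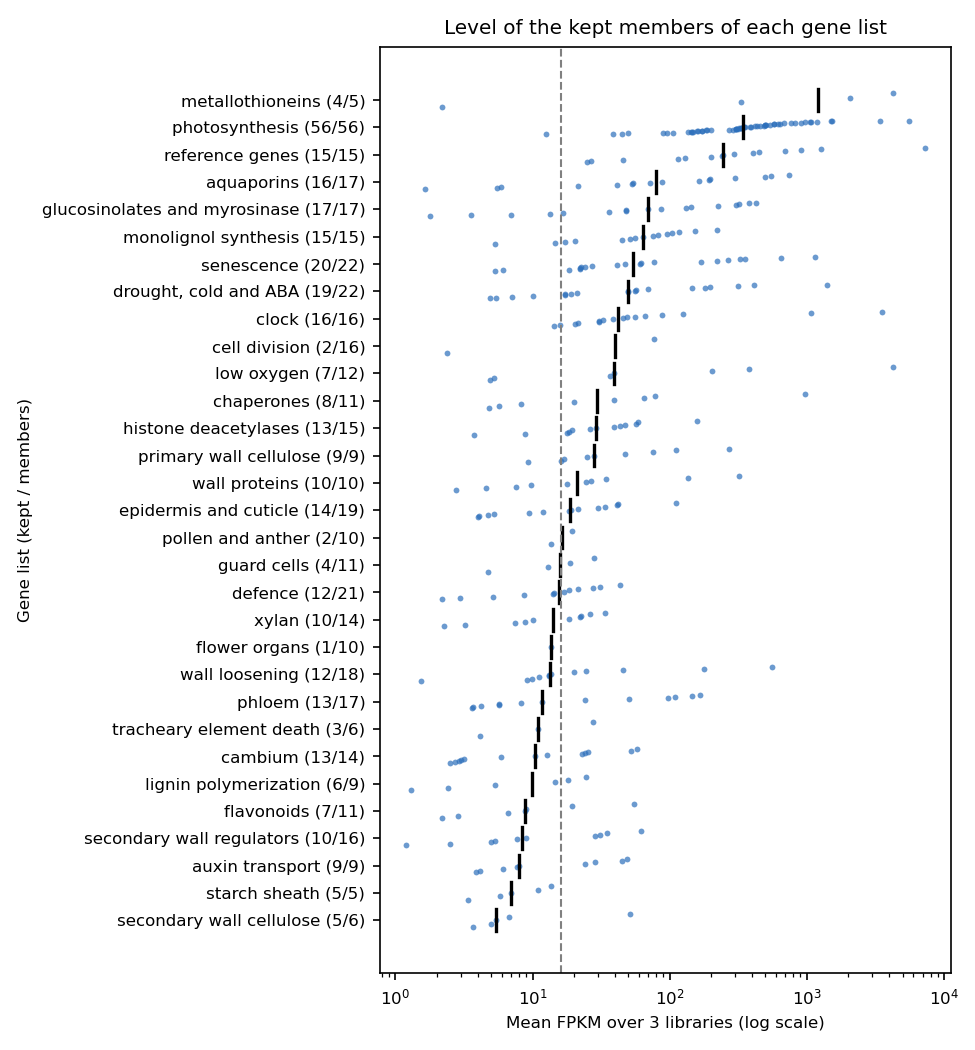
Mean level in FPKM (log axis) of the kept members of each gene list, 1 point per gene, with a black bar for the median of the list and a dashed line for the median of all kept genes, 16.2 FPKM. Numbers beside a list are kept and all members, and the secondary wall cellulose list is the lowest at a median of 5.43 FPKM. The seed and root lists had 0 kept members and are not drawn, although the seed genes summed to 332 and 335 FPKM in libraries 2 and 4.

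Cell division was nearly absent by its marker transcripts. Only 2 of 16 members were kept, CDKA;1, a kinase that is also made outside dividing cells, with 66.1, 84.4 and 80.5 FPKM, and CDKB2;1 with 1.95, 2.60 and 2.57 FPKM. The B-type cyclin CYCB1;1 was at 0.410, 0.115 and 0.138 FPKM, the replication factor PCNA1 at 0.551, 0.202 and 0.313 FPKM, and KNOLLE, which forms the cell plate, came closest with 1.46, 0.813 and 1.22 FPKM. The cambium list was present at a low level, with 13 of 14 kept and a median of 10.4 FPKM. PXY, the receptor that keeps cambium cells dividing, had 14.8, 11.99 and 11.1 FPKM, and its peptide ligands CLE41 and CLE44 had 29.4, 22.4 and 20.4 FPKM and 23.5, 26.4 and 26.2 FPKM. WOX4, which acts downstream of PXY, had 7.20, 0.299 and 0.183 FPKM and was the member not kept. The highest were CNA and PHV, homeodomain genes of vascular patterning, with 43.3, 66.0 and 65.6 FPKM and with 34.4, 62.0 and 60.9 FPKM.

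Markers of the living tissues around the wood were seen in part and at unlike levels. The phloem list kept 13 of 17 members with a median of 11.7 FPKM. SWEET11 and SWEET12, which release sucrose for phloem loading, had 219, 140.0 and 139.6 FPKM and 220.6, 51.9 and 55.3 FPKM, and SUC2, which takes it up into companion cells, had 110.4, 90.9 and 92.2 FPKM. CALS7, SUS5, SUS6 and SULTR1;3 were not kept. In the starch sheath all 5 genes were kept at a median of 6.92 FPKM, at the percentile 24.7. Of these, 0 lay above the median of all kept genes. SCR had 3.49, 3.64 and 2.98 FPKM and PIN3 had 11.1, 14.4 and 15.2 FPKM. The 9 auxin transporters were kept too, with a median of 7.97 FPKM. LAX1 and AUX1, which carry auxin into cells, had 60.8, 40.7 and 44.6 FPKM and 56.0, 38.3 and 39.5 FPKM.

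Epidermis and cuticle kept 14 of 19 members with a median of 18.7 FPKM. CER6, which elongates the fatty acids of wax, led with 184.5, 70.1 and 76.6 FPKM. MAH1, which turns wax alkanes into alcohols and ketones in stems, had 8.30 FPKM in library 1 but 0.0684 and 0.0146 FPKM in libraries 2 and 4, and PDF1 ran the other way with 0.833, 5.92 and 5.33 FPKM. Guard cell genes kept 4 of 11 members with a median of 15.8 FPKM. GC1, a guard cell marker, had 24.1, 31.6 and 28.8 FPKM. FAMA, which acts late in the stomatal lineage, had 28.2, 14.2 and 13.9 FPKM. SPCH and MUTE, which act earlier in this lineage, stayed at 0.0857 FPKM or less. Aquaporins, which let water through membranes, kept 16 of 17 members with a median of 79.4 FPKM, or 125.6, 56.8 and 53.1 FPKM per library. TIP1;2 of the vacuole had 691, 738 and 801 FPKM and PIP2;1 of the plasma membrane had 525, 552 and 580.5 FPKM, while PIP2;4 was the member not kept.

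Markers of other organs were mostly below the limit in at least 1 library, with exceptions, and seed transcripts were seen in libraries 2 and 4. No root gene was kept out of 8, and the highest value was 0.930 FPKM for PYK10. Of 10 genes of flower organs, SHP1 alone was kept with 20.8, 9.04 and 10.7 FPKM, and the list summed to 25.3, 12.3 and 14.4 FPKM. SHP1 also acts in the fruit wall. Of the pollen and anther list, AGP6 and VGD1 were kept out of 10 genes, with 5.24, 27.4 and 25.4 FPKM and with 1.81, 19.4 and 19.7 FPKM, and the list summed to 8.55, 69.7 and 76.0 FPKM. None of the 16 seed genes was kept. They summed to 0.699 FPKM in library 1, against 332 and 335 FPKM in libraries 2 and 4. The albumin gene SESA4 was listed at 0 in library 1 and reached 90.13 and 85.4 FPKM in the others, the oil body gene OLEO1 had 0, 31.7 and 32.3 FPKM, and LEC1, an embryo regulator, was listed at 0 throughout. The part of seed and pollen transcripts in the other differences between libraries was not tested.

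Genes of senescence were high. The list kept 20 of 22 members with a median of 54.1 FPKM at the percentile 82.5. SAG21, a small protein of late embryogenesis type, was the highest with 1157, 1228 and 1078 FPKM. SAG14 and SEN4 were lower in library 1, with 360.5, 798 and 803 FPKM and with 218, 441 and 410.4 FPKM. GLN1;1 and GLN1;4, cytosolic glutamine synthetases that recycle nitrogen, had 430.2, 184 and 188 FPKM and 348, 159 and 157 FPKM. SAG12, a protease seen almost solely in old tissue, had 80.8, 32.5 and 28.8 FPKM. Chlorophyll breakdown was represented by PPH at 79.2, 77.3 and 74.9 FPKM and NYC1 at 78.7, 51.0 and 52.6 FPKM. The regulators ORE1 and WRKY6 were the lowest kept members, with 5.65, 6.197 and 6.36 FPKM and with 4.70, 4.74 and 6.46 FPKM, and RNS1 and SAG29 were not kept.

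The list of drought, cold and abscisic acid kept 19 of 22 members with a median of 49.9 FPKM. After ERD14 came COR47, another dehydrin, with 381, 423.5 and 429.8 FPKM, and RD22 with 644, 147 and 148 FPKM. P5CS1, which makes proline, had 16.5, 65.6 and 66.4 FPKM, and NCED3, the key enzyme of abscisic acid synthesis, had 1.40, 10.3 and 9.51 FPKM. LEA7, RD29B and KIN1 were not kept. Of the genes tied to low oxygen, 7 of 12 were kept with a median of 39.3 FPKM. Beside RAP2.3, the related factors RAP2.2 and RAP2.12 had 336, 406 and 400.0 FPKM and 198, 207 and 203 FPKM, but ADH1, an enzyme of fermentation, had 40.3, 35.5 and 34.1 FPKM and PDC1, SUS4, HB1, PCO2 and HRA1 were not kept. Chaperones kept 8 of 11 members with a median of 29.8 FPKM, with HSP70-1 at 1139, 837 and 935 FPKM and the small heat shock genes HSP18.2, HSP17.6II and HSP21 not kept.

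The list of chemical defence was high, and that of pathogen defence lay near the median of all kept genes. All 17 genes of glucosinolates and myrosinase were kept with a median of 69.1 FPKM, or 83.8, 44.3 and 45.3 FPKM per library. CYP83B1, of the indole branch, had 366, 452 and 467 FPKM and the myrosinase gene TGG2 had 219, 359 and 389 FPKM. The methionine-derived branch was instead higher in library 1, where CYP79F1 had 374 FPKM against 26.2 and 29.1 FPKM, BCAT4 had 580.4 FPKM against 51.6 and 45.7 FPKM and MAM1 had 698 FPKM against 111 and 99.0 FPKM. The list of defence genes kept 12 of 21 members with a median of 15.6 FPKM, against 16.2 FPKM over all kept genes. It does not hold every gene that may serve defence. The WRKY factors WRKY18 and WRKY40, outside it, had 244, 566 and 511 FPKM and 72.3, 460 and 428 FPKM. PR5 and PR2 had 53.8, 20.3 and 19.2 FPKM and 43.0, 21.5 and 19.0 FPKM, but PR1, a marker of salicylic acid, had 0.402 FPKM in library 1 and was listed at 0 in libraries 2 and 4. Flavonoid genes kept 7 of 11 members with a median of 8.79 FPKM. PAP1, the regulator of anthocyanins, had 151, 6.79 and 8.16 FPKM, CHS, the first enzyme, had 8.23, 5.48 and 6.13 FPKM, and F3H was listed at 0.

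The clock list showed the libraries running in opposite directions. All 16 members were kept with a median of 42.0 FPKM, and the median of the list was nearly equal in the libraries at 40.3, 38.1 and 39.3 FPKM. Its members were not. CCA1 and LHY, factors whose transcripts are known to peak around dawn, had 12.4, 181 and 181 FPKM and 1.299, 48.0 and 48.3 FPKM, a 37.2-fold range for LHY. RVE8, which also peaks in the morning, had 10.3, 82.4 and 75.2 FPKM. Genes known to peak late in the day were higher in library 1. FKF1, a blue light receptor, had 84.1, 3.43 and 3.39 FPKM, LUX and ELF4 of the evening complex had 103, 5.57 and 7.08 FPKM and 159.9, 21.4 and 18.5 FPKM, and GI and PRR5 had 46.4, 8.06 and 9.49 FPKM and 34.2, 3.86 and 5.05 FPKM. TOC1 and ELF3 stood between them with 57.6, 44.3 and 45.2 FPKM and with 26.7, 31.9 and 33.4 FPKM. Library 1 was the highest in 8 of the 16 genes and the lowest in the other 8. Over all kept genes it was the highest in 53.5% and the lowest in 39.6%, so these counts alone do not set the list apart. No source used here states the hour at which the stems of each library were taken, and its part in these levels was not tested.

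**Figure D4:**
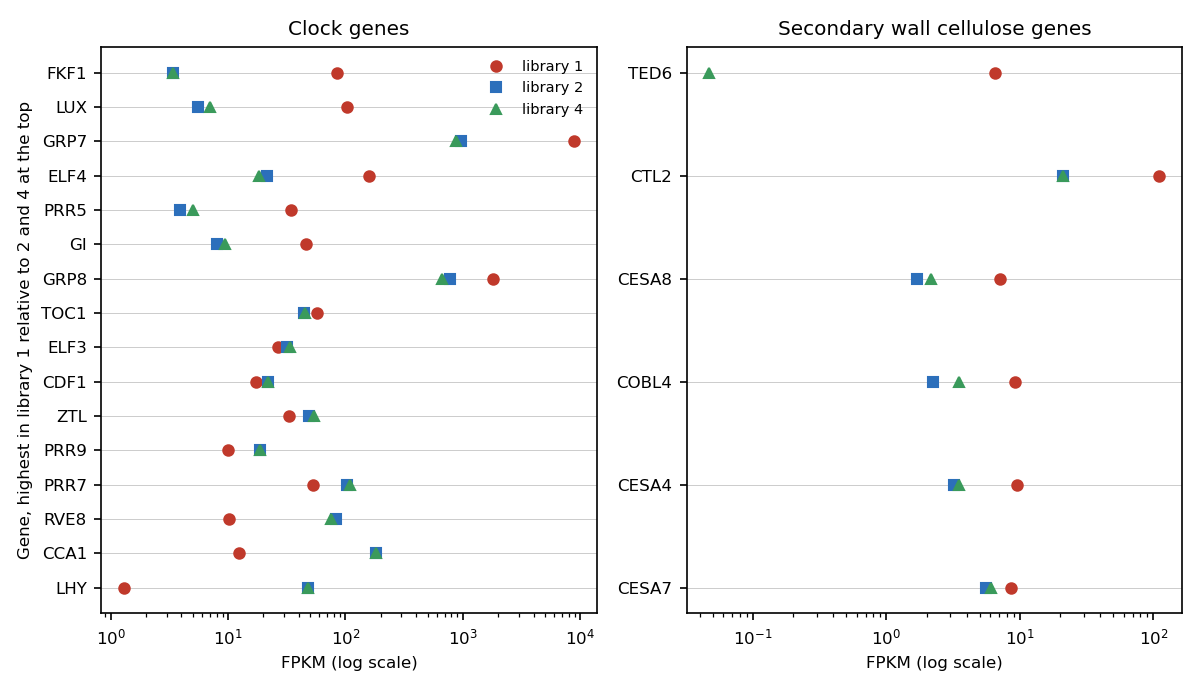
Level in FPKM (log axis) of the 16 clock genes and the 6 genes of secondary wall cellulose, with a symbol for each library and the genes with the highest ratio of library 1 to the mean of libraries 2 and 4 at the top. LHY, CCA1 and RVE8 lie lower and FKF1, LUX and ELF4 higher in library 1, and every wall gene lies higher in library 1 (TED6 had 0 FPKM in library 2, which a log axis cannot show).

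Histone deacetylases, the family to which the gene studied in this series belongs, kept 13 of 15 members with a median of 29.3 FPKM. They remove acetyl groups from histones and thereby quieten genes. HDT1, of the plant-specific HD2 group, had 53.3, 65.3 and 56.9 FPKM, a mean of 58.5 ± 6.16 (SD, n = 3). HDT2 was the highest of the family with 165, 152 and 155 FPKM, HDT3 had 41.7, 45.3 and 44.0 FPKM and HDT4 had 53.4, 33.5 and 31.6 FPKM. Compared within each library, HDT2 was above every other member. HDT1 was above HDA8, which had 35.9, 52.8 and 53.4 FPKM, in each library. It was about level with HDT4 in library 1 and above HDT4 in the other libraries. HDA19, with 48.2, 62.8 and 60.8 FPKM, was above HDT1 in library 4 and below it in the others. HDA6 was the most even with 19.7, 19.7 and 18.8 FPKM, and SRT1, a sirtuin, was the lowest kept member with 4.82, 3.25 and 3.10 FPKM. HDA7 and HDA18 were not kept, at 0.668 FPKM or less. Transcription factors and other regulators were taken by words of the product name, a set chosen after values had been seen. They made up 901 of the 16691 kept genes, with a median of 14.8 FPKM, against 16.2 FPKM over all kept genes. Such a search can miss regulators and take in other genes. Of the first 100 genes 3 were from this set, a count too small to tell from its share of all kept genes. These were RAP2.3 and the A20/AN1-like zinc finger genes AT1G51200 and AT3G52800, which the words zinc finger brought in.

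Among the kept genes, abundant ones were shorter than the others. Among 16166 kept protein-coding genes of the nucleus, split by rank into 10 equal bins, the most abundant bin had a median merged exon length of 1389 bases and a median coding length of 735 bases, against 1791 and 1155 bases over all kept genes. The least abundant bin had 1915.5 and 1366.5 bases. The 10545 protein-coding genes that were not kept had 1219 and 930.0 bases. Across these genes the log2 level correlated with coding length at a Spearman's rho of -0.24 and with exon number at 0.032, and the division by length in FPKM enters this relation. Genes without an intron made up 14.6% of the most abundant bin, 26.2% of the least abundant bin and 30.4% of the genes that were not kept.

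Promoter letters differed between families and, for TGGGCC, along the rank, and family and rank were not separated. Motifs were looked for on both strands in the window of 250 bases before to 50 bases after the annotated start, apart from TATAAA, which was looked for on the strand of the gene between positions -50 and -15. TGGGCC, the site II element, was found in 26.3% of the most abundant bin and 15.0% of the least abundant bin. It was in 20.6% of all kept genes, 8.17% of those not kept and 15.7% of all 26711 promoters. Among the 296 kept ribosomal protein genes it was in 55.4%, and AAACCCTA, the telo box, was in 36.1%, against 5.71% of all kept genes and 6.17% of all promoters. AT4G27090, shown above, carried both. Of the 56 photosynthesis genes 42.9% held the core of the I-box, GATAAG, and 26.8% held the G-box, CACGTG, against 15.2% and 9.06% of all kept genes and 14.6% and 7.79% of all promoters. TATAAA was in 7.96% of kept genes, 10.7% of those not kept and 9.05% of all promoters, and on the opposite strand of the same window in 4.44% of kept genes. A match is a description of letters and no sign that a factor is bound.

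The evening element AAAATATCT was in 3.12% of all kept genes, 2.86% of all promoters and 9 of the 100 most abundant genes. Among the 16 clock genes, 43.8% held it. LUX carried it at position -53, FKF1 at -186 and again at the annotated start, and PRR5 at -187. GRP7, GRP8, TOC1 and PRR9 held it too, of which PRR9 was lower in library 1 with 10.03, 18.8 and 18.8 FPKM, whereas ELF4 and GI, both higher there, did not hold it in this window. Of the 1567 genes at least 2-fold higher in library 1 than in both other libraries, 6.89% held it, against 3.31% of the 1147 genes at least 2-fold lower there and 2.67% of the 13452 genes in between. These groups were formed from the values themselves, so the shares are a description without a test. GRP7, with 3 copies, and MT2A, with 2, were both in the first of these groups, but CAT3, with 1 copy, had nearly even levels. ERD15, also with 1 copy, was lower in library 1 with 1274, 1833 and 1804 FPKM.

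**Figure D5:**
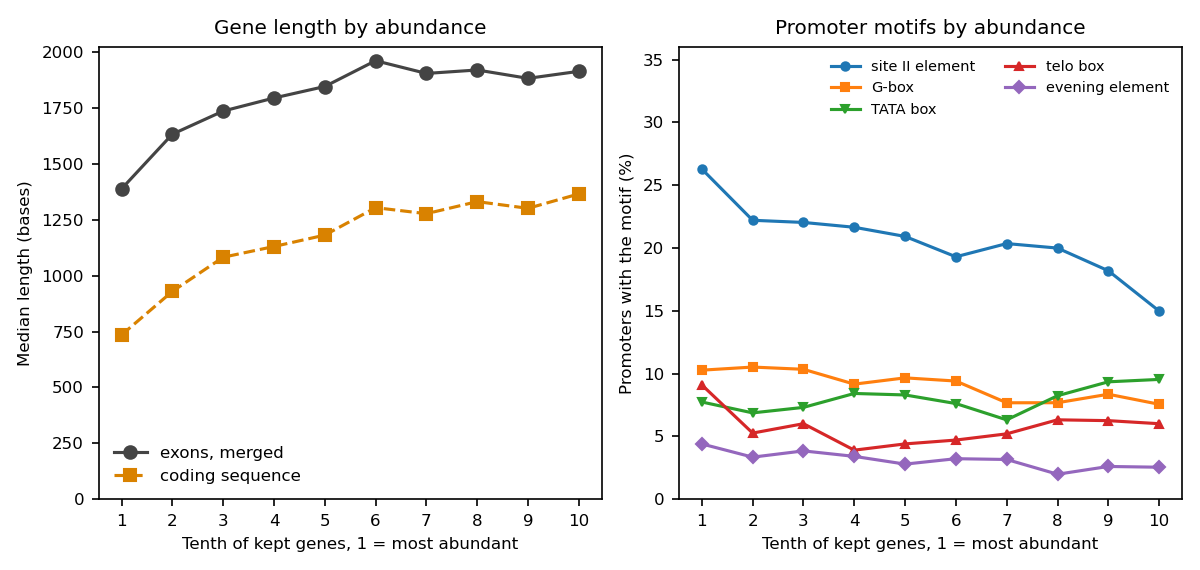
Median length in bases (left) and share of promoters with a motif in percent (right) for the 16166 kept protein-coding nuclear genes in 10 equal bins of rank, with bin 1 the most abundant. Coding length is 735 bases in bin 1 and 1366.5 bases in bin 10, and the site II element is the motif with the highest share in each bin.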

How the data were processed

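RNA of mature stems was sequenced, and the authors deposited FPKM values per gene and library, named RPKM in the paper. HTSeq 0.6.1, TopHat2 2.0.12 and Bowtie2 2.2.3 are listed, with no role, in the submitters' processing notes. The authors' genome build was not given in the sources used here, and coordinates, lengths and promoters were taken from RefSeq's TAIR10.1, which held 32835 of the 33690 features. The sample labels number the wild type 1 to 3 and the table's columns 1, 2 and 4, so columns were tied to the genotype and not to a single sample. The 3 hdt1 columns were left out, and 0 columns belonged to no sample.

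Genes with at least 1 FPKM in all 3 wild-type libraries were ranked by their mean with Python 3.11.15, NumPy 2.4.6 and pandas 2.3.3, and figures were drawn with matplotlib 3.10.9. Lists are given by members kept and by median beside that of all kept genes, with no test and no p-value. The ranking was checked on simulated data. Merged exon length and FPKM gave whole reads within 0.001 in all 3 libraries for 7.10% of 16573 kept genes with a length, so the depth is an estimate and its precision covers counting error alone. The members and the 33 lists (478 genes, all in the table, 353 kept) were chosen with earlier results of these data known. The genes named are the 30 most abundant, the highest and lowest member of a list, members not kept, members with a described role, 3 genes on each side of the limit, the 5 largest and 5 smallest spreads among genes of at least 100 FPKM, and HDT1 to HDT4. Alternatives were a limit of 0.5 or 5 FPKM, at least 2 of 3 libraries, scaling to a common sum or by median ratios, the median or geometric mean, nuclear genes alone, reads in place of FPKM and each library left out.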

Additional observations from a re-analysis of the deposited data

How the results depend on the processing

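The number of kept genes, 16691, was 17863 with a limit of 0.5 FPKM, 12619 with 5 FPKM and 17664 when 2 of 3 libraries sufficed, and between 16857 and 17314 with 1 library left out. The shares held by the 10, 100 and 1000 most abundant genes are taken over all features, so no change of the limit could move them. Under the other alternatives they moved by less than the spread between libraries, except with reads in place of FPKM. There the 100 genes held 16.9% and the 1000 genes 44.8%. That spread includes the unlike library 1, so this is a weak check. With 1 library left out, the 10 genes held 5.90% to 6.11% and the 100 genes 18.7% to 19.3%. Without library 1, 7 of the 30 most abundant genes left that group. The median percentile of 14 of 31 lists then moved by more than the spread between libraries, with low oxygen at 51.2 in place of 76.2 and wall proteins at 38.9 in place of 58.1. With a limit of 5 FPKM it moved in this way for 21 of the 31 lists, since members below that limit drop out. The percentile of cell division rests on 2 kept genes and was 2.47 with a limit of 0.5 FPKM in place of 47.2. Secondary wall cellulose stood at percentile 38.1 with reads in place of FPKM and 39.5 with a limit of 5 FPKM, in place of 19.3. No paired analysis was possible because no comparison between groups was made. Depth limits the genes near the limit of 1 FPKM most, where 3 reads were the fewest and 64 the median.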
